A study of Saccharomyces cerevisiae with 4 samples.

Results

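The genes described here encode 10 enzymes of ergosterol synthesis in budding yeast, listed in the order in which they act: ERG10, ERG13, HMG1, HMG2, ERG20, ERG1, ERG11, ERG25, ERG6 and ERG3. They were found by symbol among the 6002 nuclear protein-coding genes of the RefSeq R64 table, and all 10 were matched. The readout is chromatin immunoprecipitation followed by sequencing (ChIP-seq) for Acs2, an acetyl-CoA synthetase found in the nucleus and the cytosol. A gene was taken to have a peak where a called peak shared at least 1 bp with the region from 500 bp upstream of its coding start to its end.

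A strain with FLAG-tagged Acs2 was set beside an untagged strain, and from each the immunoprecipitate with the M2 antibody against FLAG and an input without antibody were sequenced. Both cultures grew at 28 °C in YPD, a rich medium, with glucose at 2% until their OD600 was 0.7 to 1.0, and formaldehyde at 1% served as the crosslinker. There was 1 library in each of the 4 groups; no replicates exist for any value, and the strains were compared without a test. The labels do not give the strain background, the position of the tag, or whether the tagged strain is a single clone.

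Ergosterol is the main sterol of fungal membranes and takes the place that cholesterol has in animal cells. Its carbon comes from acetyl-CoA, the product of Acs2: acetyl-CoA units are joined and reduced to mevalonate, mevalonate is built up to squalene, and squalene is oxidised, closed into rings and remodelled into ergosterol. Flux is controlled at HMG-CoA reductase, and sterol shortage raises many of the genes through the transcription factors Upc2 and Ecm22. The pathway is also the target of azole and allylamine antifungal drugs.

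The Acs2-FLAG list held 912 peaks and the untagged list 34. Each peak carries the authors' fold enrichment, the fragments at its summit over the local background. The fragment count and the background were recovered from the fold and its p, and the 95% intervals given with each fold are exact Poisson intervals of that count. They cover counting error only and compare no cultures. The lowest background at a summit was 291 fragments per base in the Acs2-FLAG library and 198 in the untagged library.

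Of the 10 ergosterol genes, 6 had an Acs2-FLAG peak and 0 had an untagged peak. The share among all protein-coding genes was 20.6% in the Acs2-FLAG list and 0.533% in the untagged list. The 10 genes were chosen with earlier results of these data known, so the counts are given as a description. At a −log10 q of at least 5, 3 of 10 had an Acs2-FLAG peak, against 17.6% of all protein-coding genes. Among still stronger peaks no excess was left. The counts were 0 of 10 against 14.0% of all protein-coding genes at a −log10 q of at least 10, and 0 of 10 against 12.3% at a fold of at least 1.5. With 10 genes, counts of 3 and 0 cannot be told apart from such shares. The genes with a peak were ERG10, ERG1, ERG11, ERG25, ERG6 and ERG3, and those without were ERG13, HMG1, HMG2 and ERG20. ERG1 had a pair of peaks, so that 7 peaks stood at the 6 genes; at least 2 peaks were found at 1.55% of protein-coding genes. All 7 peaks were weak, with folds between 1.21 and 1.40. Each of the 7 summits lay in the coding region of the ergosterol gene itself, where no other annotated gene overlapped it. A summit in the coding region was found at 7.75% of all protein-coding genes.

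**Figure D1:**
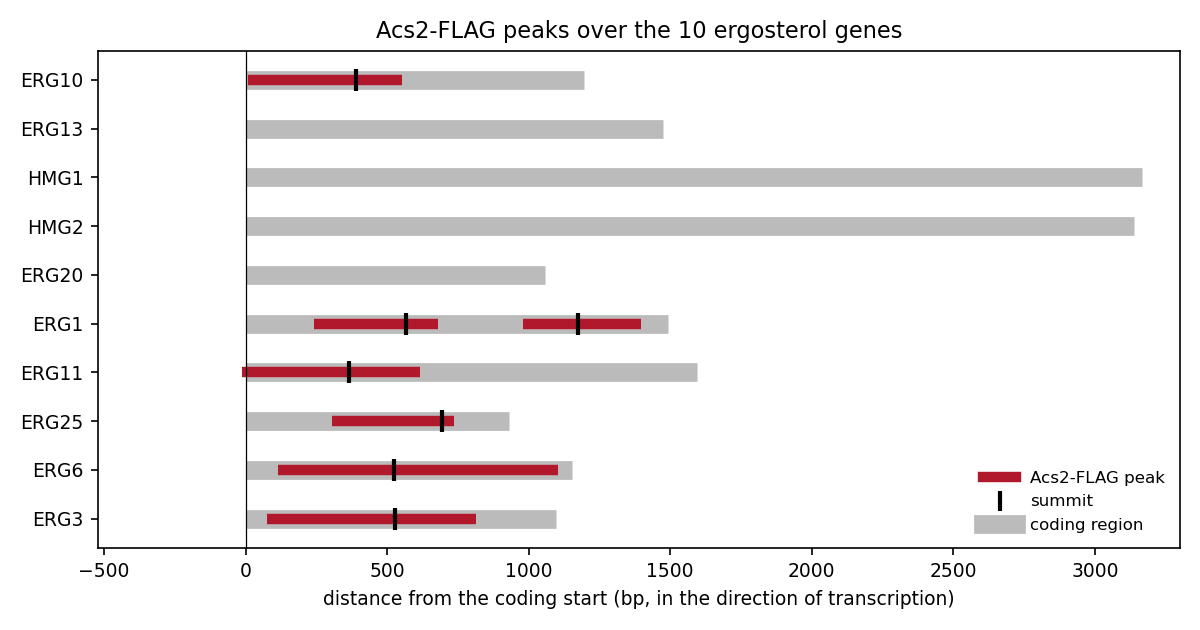
Position of the Acs2-FLAG peaks (red) and their summits (black ticks) over the coding regions (grey) of the 10 genes, in bp from the coding start in the direction of transcription. ERG13, HMG1, HMG2 and ERG20 carry no peak; the peak of ERG11 is the one that crosses the coding start, by 13 bp.

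The pathway begins with ERG10, the acetoacetyl-CoA thiolase, which joins acetyl-CoA units to acetoacetyl-CoA. ERG10 (chromosome XVI, 498096 to 499292) had a peak at 498106 to 498650, 545 bp wide. At its summit, 390 bp from the coding start, 401 fragments stood over a background of 321, a fold of 1.25 (1.13 to 1.38). The peak started 10 bp inside the coding region and covered 45.5% of it. Neither flanking gene, SUV3 or SMA1, had a peak on its coding region.

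The next steps had none. ERG13 encodes HMG-CoA synthase, which adds a further acetyl-CoA, HMG1 and HMG2 the paired isozymes of HMG-CoA reductase, and ERG20 farnesyl pyrophosphate synthase, which makes the isoprenoid unit that squalene synthase joins. The nearest Acs2-FLAG peak to the ERG13 region was 2785 bp away, with a fold of 1.94 and its summit in the phosphate transporter gene PHO84 and the overlapping antisense RNA gene YNCM0001W. From the HMG1 region it was 12231 bp away, at the tRNA gene YNCM0004C with 3.51, from HMG2 4693 bp, at VMA6 with 1.26, and from ERG20 8346 bp, at KRE9 with 1.19. No flanking gene of these 4 genes had a peak on its coding region. The 4 genes without a peak were 1059 to 3165 bp long and the 6 with one 930 to 1593 bp. These ranges overlapped, and the part of gene length in the calls was not tested. The lowest fold called anywhere in the Acs2-FLAG list was 1.15, and the list gives no value for a gene without a peak.

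All 5 listed genes that act after squalene had a peak, against 1 of the 5 that act before it, where the share among all protein-coding genes was 20.6%. The split at squalene was chosen after the values were seen and is given as a description. ERG1, the squalene epoxidase that allylamines inhibit (chromosome VII, 846933 to 848423), had peaks at 847745 to 848180 and at 847026 to 847444, separated by 300 bp. Their summits lay 566 and 1173 bp from the coding start, with 414 fragments over 338 and 421 over 349. The folds were 1.22 (1.11 to 1.35) and 1.21 (1.09 to 1.33), and their intervals overlapped almost fully. Together they covered 57.3% of the coding region. A separate peak lay 949 bp downstream of ERG1, over the tRNA gene YNCG0039W, and had a fold of 3.29 (3.10 to 3.50).

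ERG11, the lanosterol demethylase that azoles inhibit (chromosome VIII, 120091 to 121683), had a peak at 121066 to 121696. It covered the first 618 bp of the coding region and 13 bp upstream of it, and was the only one of the 7 to reach the 500 bp before a start. Its summit lay 365 bp inside, with 436 fragments over 334 and a fold of 1.30 (1.19 to 1.43). A separate peak with its summit in SOD2, the mitochondrial superoxide dismutase gene, lay 686 bp upstream of ERG11 and had a fold of 1.33 (1.21 to 1.45).

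ERG25, a sterol methyl oxidase (chromosome VII, 610564 to 611493), had a peak at 610868 to 611301 with the summit 695 bp from the start. There 355 fragments stood over 291, a fold of 1.22 (1.10 to 1.35). Peaks lay on both sides of it. A peak that met the small nucleolar RNA gene SNR48 lay 529 bp upstream with a fold of 1.83 (1.68 to 1.99). A peak 4097 bp wide over ADE6 began 328 bp downstream with 1.51 (1.38 to 1.66). Both stood above the ERG25 peak, and their intervals did not overlap with its own. The part of neighbouring peaks in the values at ERG25, ERG1, ERG11 and ERG3 was not tested.

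ERG6, the sterol methyltransferase that adds the side-chain carbon found in ergosterol and not in cholesterol (chromosome XIII, 251839 to 252990), had the strongest and widest peak of the 7. It ran over 987 bp, from 251888 to 252874, and covered 85.7% of the coding region. At the summit, 524 bp from the start, 461 fragments stood over 329.9, a fold of 1.40 (1.27 to 1.53). Its flanking genes MRPL39 and MIN4 had no peak on their coding regions.

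ERG3, a sterol desaturase (chromosome XII, 253861 to 254958), came next in width. Its peak, at 253936 to 254676, was 741 bp wide and covered 67.5% of the coding region. The summit lay 529 bp from the start, with 404 fragments over 313 and a fold of 1.29 (1.17 to 1.42). The flanking gene MNL2 met a stronger peak 2669 bp downstream of ERG3, with a fold of 2.77 (2.59 to 2.96) and its summit in SHM2, the serine hydroxymethyltransferase gene. ERG6, ERG11 and ERG3 were thus the 3 genes with the highest folds, and ERG25 and ERG1 had the lowest. The intervals overlapped in all 21 pairs of the 7 peaks, and the order was not tested.

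**Figure D2:**
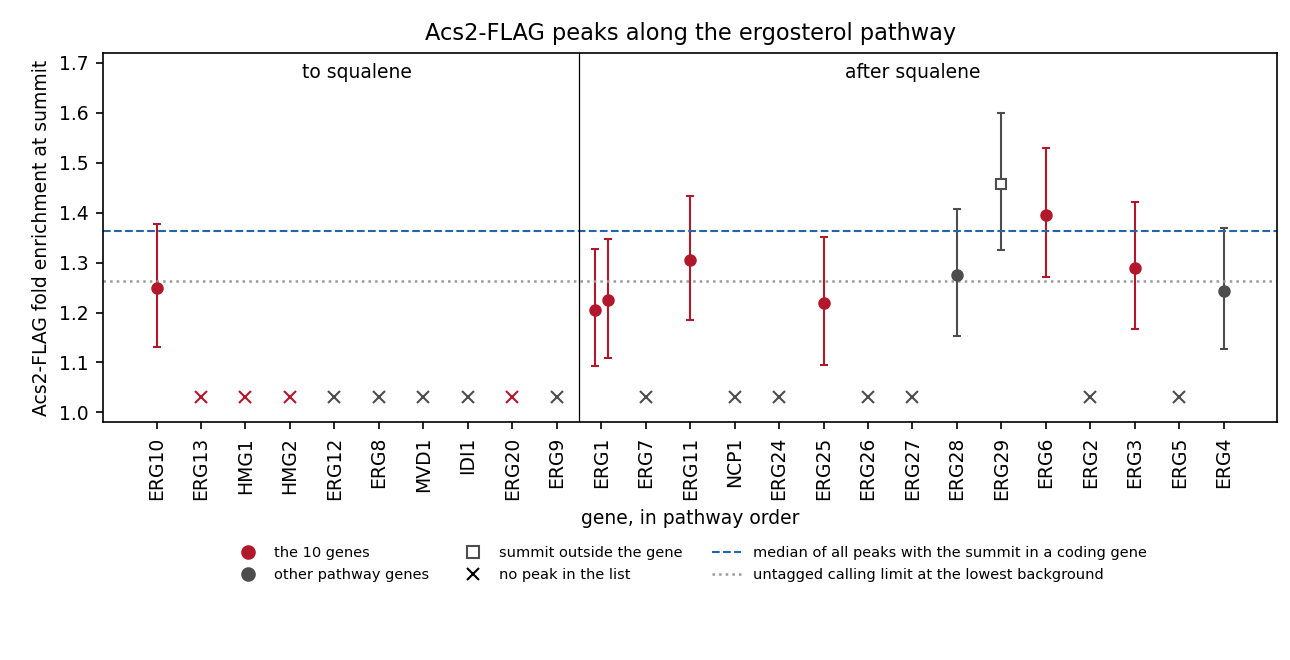
Acs2-FLAG fold enrichment at the summit, with 95% Poisson intervals of the fragment count, for 25 pathway genes in pathway order; the 10 genes are red, other pathway genes grey, crosses mark genes without a peak. The dashed line is the median fold of 1.36 over all peaks with the summit in a coding gene, and the dotted line is the fold of 1.26 that the untagged list could call at its lowest background.

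By the deposited −log10 q, the peaks ran from 2.61 at ERG25 and 2.79 and 3.24 at ERG1, through 3.81 at ERG10, 5.06 at ERG3 and 5.95 at ERG11, to 9.86 at ERG6. In the whole list, the lowest value was 1.35. By fold, the 7 peaks ranked between 601 and 880 of 912. Their median fold was 1.25, against 1.36 for the 472 peaks with the summit in a protein-coding gene and in no RNA gene, a set that includes them. Of these 472 peaks, 81.8% had a fold above the members' median and 45.3% a fold above that of ERG6. The peaks at ergosterol genes thus lie in the weak part of the list.

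**Figure D3:**
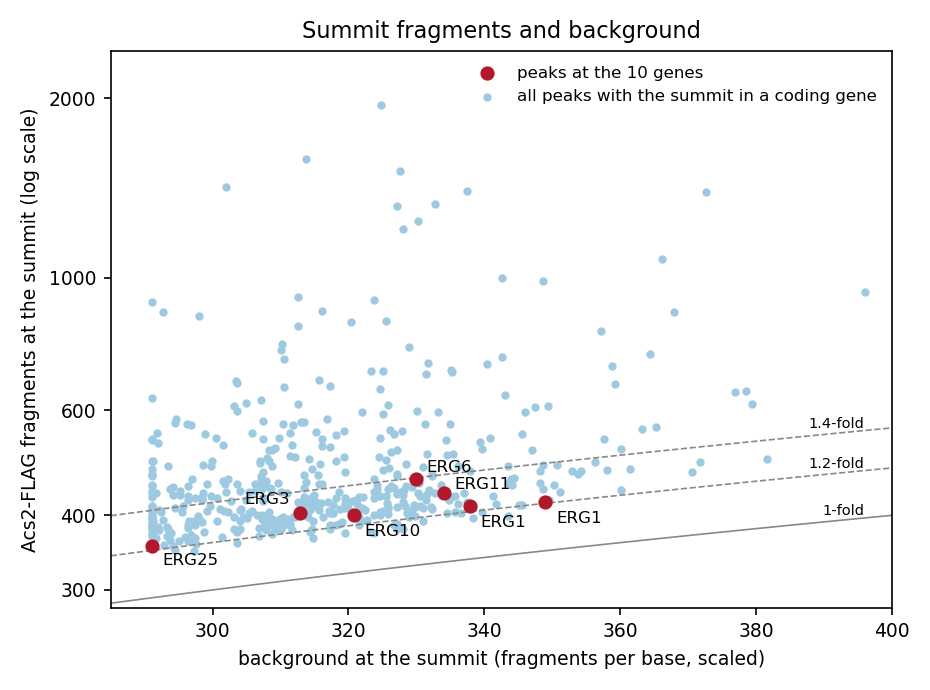
Acs2-FLAG fragments at the summit (log scale) against the background at the summit, for the 7 peaks at the 10 genes (red) and for 464 of the 472 peaks with the summit in a coding gene (blue, the red ones included); 8 peaks with a background above 400 are not drawn. The red points lie between the lines of 1.2-fold and 1.4-fold enrichment. The fold of ERG6, at 1.40, is above the median of 1.36 for the 472 peaks, and the other red points are below it.

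The background under the 7 summits was 291 to 349 fragments per base, with a median of 329.9, against a median of 315 for the 472 peaks. The background was lowest at ERG25 and highest at ERG1. The summits held 355 to 461 fragments. The width of the peaks had a median of 545 bp, against 745.5 bp for the 472. Of the 7 peaks, 6 lay wholly inside the coding region, as did 140 of the 472 (29.7%). The 7 were 419 to 987 bp wide and the 472 reached 7527 bp, and peaks of like width were not compared.

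Within the genes, the summits lay at 22.9% of the coding length in ERG11, 32.6% in ERG10, 38.0% and 78.7% in ERG1, 45.5% in ERG6, 48.2% in ERG3 and 74.7% in ERG25. In 5 of 7 peaks (71.4%) the summit was thus before 50% of the coding length, against 181 of the 472 (38.3%). This rests on 7 peaks, with ERG1 counted on both sides of 50% and ERG6 and ERG3 just under it. The difference was not tested. None of the 7 summits lay in the 500 bp upstream, where 4.72% of all protein-coding genes had a summit. Any base of a peak was found there at 1 of the 10 genes, ERG11, against 13.2% of all protein-coding genes. With 10 genes, neither count can be told apart from the share of all protein-coding genes. The 7 summits themselves lay over coding sequence.

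**Figure D4:**
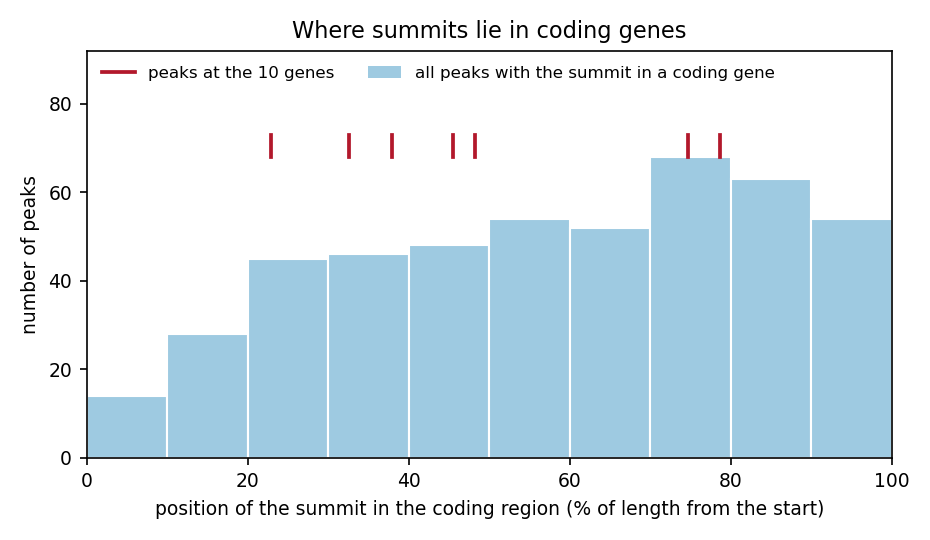
Position of summits along the coding region, in percent of its length from the start: number of peaks per 10% of the length for the 472 peaks with the summit in a coding gene (blue), and the 7 peaks at the 10 genes (red ticks). Of the red ticks, 5 of 7 lie below 50%, while 38.3% of the 472 do, a difference that was not tested.

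The untagged list measures what the antibody and beads recover with no tagged protein. None of the 7 Acs2-FLAG peaks shared a base with an untagged peak. The untagged list was short, at 34 peaks (24 of them nuclear) against 912, and met 0.533% of all protein-coding genes. Neither this absence nor the distances below therefore set the ergosterol genes apart from other genes with no untagged peak. On the chromosomes that had one, the nearest untagged peak lay 19573 bp from ERG3 (at PDC1), 33632 bp from ERG1 (at TDH3), and 128129 to 253244 bp from ERG25, HMG2, ERG10 and ERG11. The untagged library had the lower background, and a fold under 1.26 would not have reached the lowest −log10 p of its list at that background. The folds at ERG10, ERG25 and both peaks of ERG1 were under this limit, so an untagged signal of the same size could have gone uncalled there. Those at ERG11, ERG6 and ERG3 were above it. Whether untagged chromatin gives a weaker signal at these genes was not tested.

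The other 15 genes of the pathway were examined in the same way. Of these, 3 had an Acs2-FLAG peak (20%, near the share of 20.6% among all protein-coding genes) and 0 an untagged peak, and 2 held the summit. ERG28, which encodes a scaffold that holds sterol enzymes together, had a fold of 1.28 (1.15 to 1.41) in a peak that covered 90.6% of its short coding region. ERG4, the last reductase of the pathway, had 1.24 (1.13 to 1.37) at the very end of the gene, in a peak that ran on into the proteasome gene SCL1. At ERG29, a membrane protein gene needed for ergosterol synthesis, 54 bp of the end met a peak of 1.46 (1.32 to 1.60) whose summit lay outside the gene, on the side of GID8.

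No peak was found at ERG12, ERG8, MVD1 and IDI1, which carry mevalonate to the isoprenoid units, nor at ERG9, the squalene synthase. The same held for ERG7, the lanosterol synthase, NCP1, the reductase that supplies electrons to Erg11, and ERG24, ERG26, ERG27, ERG2 and ERG5. The peak nearest to ERG7 was 444 bp from its region and had its summit at the tRNA gene YNCH0009C, with a fold of 3.26. That nearest to ERG24 was 117 bp from its region, with a fold of 1.19.

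Over all 25 genes, 8 of 15 that act after squalene or support those steps had a peak, against 1 of 10 that act up to it, ERG10, and 20.6% of all protein-coding genes. Counted by the summit, 7 of 15 genes after squalene held one, against 1 of 10 up to it and 7.75% of all protein-coding genes. These counts were made after the values were seen, and no test was made of the difference. They include the 10 listed genes on which the split was first made. Of the other 15 genes alone, 3 had a peak (20%, against 20.6%) and 2 held the summit (13.3%, against 7.75%). The 3 were ERG28, ERG29 and ERG4, and the summit at ERG29 lay outside the gene. All 3 are on the side after squalene, but so are most of the other 15 genes. Their side therefore says nothing further about the split.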

How the data were processed

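FLAG ChIP-seq of an Acs2-FLAG and an untagged yeast strain was analysed from 2 deposited peak lists in narrowPeak format. The submitters' processing notes name MACS2 for build R64, with Picard, BWA and Trimmomatic. How the caller was set, how duplicates were handled and how many reads there were is not given in the sources used here. Per the file headers, each immunoprecipitate was paired with its own strain's input, with no pooling; the direction was taken as immunoprecipitate over input. The authors' fold, a ratio to the local background, and their −log10 p and −log10 q describe the summit. The deposited score repeats the −log10 q, times 10 and cut to a whole number, and was left aside.

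Chromosome accessions were translated to chromosome numbers. As a check, tRNA genes met a peak in at least 70% of cases on every one of the 16 nuclear chromosomes under the right name, and in at most 30.8% under a wrong one. Strand was read from the systematic name. Gene spans hold no UTRs for most genes, since 96.4% of lengths are multiples of 3. Fragments n and background were solved from fold = (n + 1)/(background + 1) and the Poisson tail; n was whole within 0.05 for 907 of 912 Acs2-FLAG peaks, for 30 of 34 untagged peaks and for all 7 at the ergosterol genes. Exact Poisson intervals hold the background fixed. Solving and matching were tested on simulated data.

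All 10 genes, 15 other pathway genes and 12 regulator, esterification and degradation genes are reported, with the genes at the summits of their peaks or at the nearest peaks; ranks and folds describe peaks within a list. Members and lists were chosen with earlier results of these data known. Flanking genes and neighbouring peaks were added after the values were seen. A planned motif search was not run, since no sequences were used here. The tools were scipy 1.17.1, numpy 2.4.6 and pandas 2.3.3 in Python 3.11.15, with figures from matplotlib 3.10.9. Alternatives changed the peak threshold, the region and the overlap.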

Additional observations from a re-analysis of the deposited data

How the results depend on the processing

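The number of ergosterol genes with an Acs2-FLAG peak was 6 with the gene body alone, with 250 or 1000 bp upstream, by the summit, and with at least 50% of the peak inside. It was 3 at a −log10 q of at least 5 (ERG11, ERG6 and ERG3), 0 at a −log10 q of at least 10, 0 at a fold of at least 1.5, and 1 in the 500 bp upstream alone. In the same 4 settings the other pathway genes with a peak numbered 1, 1, 0 and 0, and with at least 50% of the peak inside 1. The share of all protein-coding genes was 17.6%, 14.0%, 12.3% and 13.2% in these 4 settings, 13.5% with the gene body alone, 17.0% with 250 bp and 25.5% with 1000 bp upstream, 12.2% by the summit, and 11.7% with at least 50% of the peak inside. The share of the 10 listed genes thus lay above that of all genes at the deposited threshold. These 10 were chosen with earlier results of these data known. The other 15 pathway genes stood at 20% there, near the 20.6% of all protein-coding genes. At a −log10 q of at least 10 no excess was left, and 0 of 10 genes cannot be told apart from 14.0%. The untagged count was 0 in every setting. The median fold stayed within the counting interval of the median peak wherever a peak was left. Of the single-gene folds, ERG25 changed to 1.83 and ERG11 to 1.33 with 1000 bp upstream, where neighbouring peaks were met. No paired analysis was possible because there was 1 library per group. Read totals are unknown, and the part of depth in the calls of folds near 1.2 was not tested.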

Other observations

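Of 12 genes that regulate sterol synthesis, esterify sterols or degrade its enzymes, 3 had an Acs2-FLAG peak (25%, against 20.6% of all protein-coding genes) and 0 an untagged peak. Of the 12, 2 held a summit in the coding region (16.7%, against 7.75%). HAP1, the haem-responsive activator of ERG genes, had a peak of 1.52 (1.40 to 1.66) over 2183 bp at the start of its coding region. Another of 1.64 (1.52 to 1.77) met its end and had its summit in the neighbouring gene YLR256W-A. The background at that summit was 408 fragments per base, against a median of 315 for the 472 peaks with the summit in a coding gene. ROX1, a repressor of hypoxic genes, had a weak peak of 1.21 (1.09 to 1.34) inside its coding region. HRD1, the ubiquitin ligase that acts on Hmg2, met a peak of 3.64 (3.43 to 3.86) by 102 bp of its end, with the summit at the tRNA gene YNCO0011W. UPC2 and ECM22, the main activators of the pathway, had none, and neither did MOT3, NSG1, NSG2, DAP1, ARE1, ARE2 and UBC7.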
